A study of Mus musculus with 23 samples.

Results

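The 10 genes studied mark the start of lymphoid development and were followed through blood cell formation from mouse embryonic stem (ES) cells, with and without the leukaemic fusion protein RUNX1-ETO. They were Ikzf1, Ebf1, Pax5, Il7r, Rag1, Rag2, Vpreb1, Igll1, Cd79a and Cd79b, chosen by name and each read by its probe with the highest mean. All 10 were found among the 20145 genes that the probes of the array could be matched to. A gene entered the statistical test when its log2 intensity reached 6.5 on at least 1 array, which left 15202 genes in all and 6 of the 10: Ikzf1, Ebf1, Il7r, Vpreb1, Cd79a and Cd79b. Rag1, Rag2, Igll1 and Pax5 stayed below that level and are described by the number of arrays on which their probes were well above background.

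All cells came from 1 ES cell line (strain C57BL/6 in the labels) with wild-type Runx1, in which doxycycline (Dox) at 0.1 μg per ml switches on an HA-tagged human RUNX1-ETO from a TET-responsive promoter. The 4 stages were haemogenic endothelium (HE, KIT+Tie2+CD41-), cells in the endothelial to haematopoietic transition (HE2, KIT+Tie2+CD41+), progenitors (CD41+KIT+Tie2-) and myeloid progenitors grown in cytokine medium. The first 3 received Dox from day 1 of blast culture and were sorted on day 2, whereas myeloid progenitors were harvested on day 3 after 12 h of Dox. Each stage has an uninduced and an induced group of 3 arrays, apart from progenitors with 2 and 2, and the uninduced cells carried the same transgene. The line was derived from picked colonies, and no cells without the transgene that had received Dox were analysed here, so that an effect of Dox itself and one of RUNX1-ETO cannot be told apart. RNA was hybridised in 1 colour to Agilent arrays, and every value below is a log2 intensity after background correction and quantile normalization. The arrays are labelled as biological replicates, but nothing states that they came from separate cultures, and P values then measure the spread between these samples.

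Lymphoid identity is set up in steps. Ikaros (Ikzf1) opens lymphoid genes in multipotent progenitors, the interleukin-7 receptor (Il7r) carries the growth signal of early lymphoid cells, and EBF1 and then PAX5 install and lock the B cell programme. The recombinase RAG1/RAG2 rearranges the antigen receptor genes, and a new heavy chain is tested at the cell surface with the surrogate light chain (Vpreb1, Igll1) and the signalling chains Igα and Igβ (Cd79a, Cd79b). RUNX1 binds DNA through its Runt domain, which the fusion protein keeps, while the ETO part recruits co-repressors.

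Promoters from RefSeq (GRCm38.p6) were at hand for 9 of the 10 genes, in 11 windows of the 250 bases before an annotated start; Cd79b was not among them. They were searched on both strands for the RUNX letters TGTGGT. The RUNX letters were present in 3 of the 11 windows, 1 each of Ebf1, Rag1 and Igll1. The share over 32851 windows of all genes was 14.05%. Ebf1 also had a window without the letters, and no window of Ikzf1 held them. A window of each of 3 genes is shown, for Ebf1 the one with the match. These genes differ in the data: Ikzf1 fell with Dox in HE2, Ebf1 rose with Dox in progenitors and Rag1 was not well above background on any array. Capitals mark RUNX matches, which begin 12 bases before the start of Ebf1 and 81 and 67 bases before that of Rag1, and the Ikzf1 window holds none. The windows lie at chr11:11685675-11685924 (+ strand, Ikzf1), chr11:44617850-44618099 (+ strand, Ebf1) and chr2:101649533-101649782 (- strand, Rag1), each 5′ to 3′. A match describes the letters of the window and was not set against binding data.
Ikzf1: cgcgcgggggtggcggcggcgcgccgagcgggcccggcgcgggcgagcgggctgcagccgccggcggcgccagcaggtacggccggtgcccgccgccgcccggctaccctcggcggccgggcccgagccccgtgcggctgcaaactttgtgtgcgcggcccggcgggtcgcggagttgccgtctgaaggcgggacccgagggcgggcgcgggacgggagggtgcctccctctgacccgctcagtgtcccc
Ebf1: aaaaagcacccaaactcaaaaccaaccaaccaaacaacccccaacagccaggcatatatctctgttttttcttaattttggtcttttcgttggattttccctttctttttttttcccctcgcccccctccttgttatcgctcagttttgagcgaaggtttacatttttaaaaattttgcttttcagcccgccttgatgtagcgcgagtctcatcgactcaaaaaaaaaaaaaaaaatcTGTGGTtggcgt
Rag1: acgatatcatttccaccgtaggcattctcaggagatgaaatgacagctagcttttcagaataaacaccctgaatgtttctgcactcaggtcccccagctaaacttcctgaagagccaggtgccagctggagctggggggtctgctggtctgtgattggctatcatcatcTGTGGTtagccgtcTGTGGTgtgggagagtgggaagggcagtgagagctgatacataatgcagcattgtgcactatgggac

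The 23 arrays lay on 3 slides, and 48.8 to 78.4% of an array's spots were well above background. All 6 myeloid progenitor arrays were on slide 3 with induced progenitor array 2 (the lowest share, 48.8%) and an additional array of uninduced progenitors that entered no test, and the other arrays were on slides 1 and 2. Runx1t1, which encodes ETO in the mouse, had log2 changes with Dox of 1.24 (HE), 2.08 (HE2), 3.96 (progenitors) and 2.06 (myeloid progenitors). The HE change did not reach the threshold used throughout, which asked for 2-fold and for P no higher than 0.001 in limma. Genes past it are referred to as changed. Whether this probe reads the human transgene was not tested. The sort markers did not follow the labels throughout. Itga2b, which encodes CD41, was well above background on all uninduced HE arrays (9.49 to 11.46) and was not significantly higher in HE2 (11.19 to 12.51, adjusted P = 0.351). With Dox it fell by 3.21 in HE (SE 0.65, adjusted P = 0.00205). Tek, which encodes Tie2, had a log2 change of -2.00 from uninduced HE2 to progenitors (adjusted P = 0.167), which did not pass, and was well above background on all arrays of the Tie2- progenitors.

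**Figure D1:**
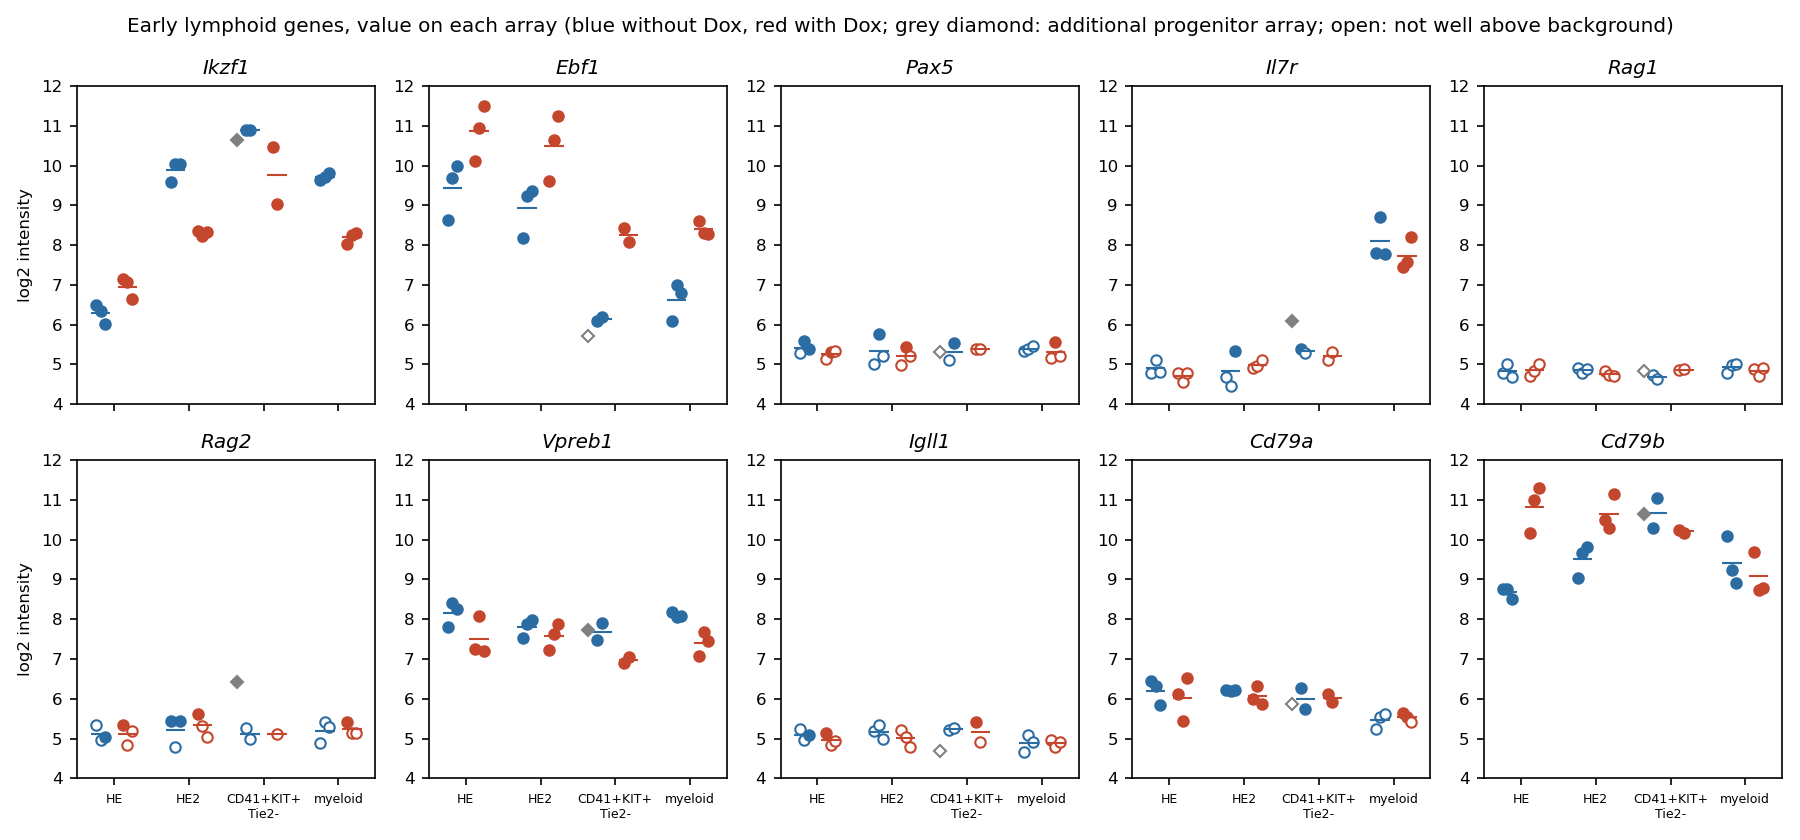
Log2 intensity of the 10 early lymphoid genes (vertical axis) on each array, by stage (horizontal axis), without Dox in blue and with Dox in red. Horizontal bars are group means, grey diamonds the additional progenitor array, and open symbols arrays on which the probe was not well above background; Rag1 is open on every array, and Il7r reaches above 7 only in myeloid progenitors.

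Ikzf1 rose from HE to HE2, and it was lower with Dox than without in HE2 and in myeloid progenitors. Its probe read 6.5, 6.34 and 6.01 on the 3 uninduced HE arrays and 9.59, 10.03 and 10.03 on the HE2 arrays. It read 10.88 and 10.90 in progenitors and 9.63, 9.70 and 9.80 in myeloid progenitors. Every step separated the groups without overlap, so that uninduced HE was lowest, progenitors were highest, and HE2 and myeloid progenitors lay between them with ranges that overlapped each other. From HE to HE2 without Dox the log2 change was 3.60 (SE 0.26, adjusted P = 1.27e-07), or 12.1-fold. The further step of 1.01 to progenitors did not reach the P value set (SE 0.29, adjusted P = 0.0373). In bulk RNA, a larger share of cells that express a gene and more RNA per cell cannot be told apart.

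With Dox, Ikzf1 read 7.16, 7.07 and 6.63 in HE and 8.34, 8.23 and 8.32 in HE2. It read 10.47 and 9.04 in progenitors and 8.04, 8.25 and 8.30 in myeloid progenitors. Induced arrays were therefore above all uninduced ones in HE and below all of them at the other stages. Ikzf1 fell by 1.58 in HE2 (SE 0.26, adjusted P = 0.000345), or 3.00-fold, and by 1.52 in myeloid progenitors (SE 0.26, adjusted P = 0.000502), or 2.86-fold. Its log2 change in HE was 0.67 (SE 0.26, adjusted P = 0.0953). That in progenitors was -1.14 (SE 0.32, adjusted P = 0.0436), and neither passed. The response itself differed between stages, by -2.26 between HE2 and HE (SE 0.37, adjusted P = 0.00862) and by -2.19 between myeloid progenitors and HE (SE 0.37, adjusted P = 0.00101), both from an interaction term in limma. Markers of some other blood cells fell beside Ikzf1, and those of others rose. In HE2 the summed level of 8 myeloid markers was 13.9 to 14.2 without and 12.9 to 13.5 with Dox (3 of 8 fell), and that of 5 megakaryocyte markers 14.5 to 15.5 and 14.1 to 14.4 (1 of 5 fell). In myeloid progenitors the megakaryocyte markers were at 16.2 to 16.4 and 15.3 to 15.4 (4 of 5 fell), while the myeloid markers overlapped at 14.8 to 15.4 and 14.4 to 14.9 (0 of 8 changed). In HE2 the summed level of 7 erythroid markers was 16.3 to 16.7 without and 18.5 to 18.8 with Dox (3 of 7 rose). That of 5 mast cell and basophil markers was 12 to 12.3 and 13.9 to 14.3 (1 of 3 tested rose). In myeloid progenitors the mast cell and basophil markers were at 10.8 to 11.2 and 13.7 to 15.2 (3 of 3 tested rose). The erythroid markers were at 20.4 to 20.6 and 20.1 to 20.4 there (0 of 7 changed). Of all genes tested, 5.17% rose and 2.05% fell with Dox in HE2, and 5.13% rose and 1.18% fell in myeloid progenitors. The part of these lists in the fall of Ikzf1 was not tested. The 2 uninduced and 2 induced progenitor arrays leave the value at that stage resting on which array is taken. Without induced progenitor array 1, the only progenitor array with Dox is the one on slide 3 and the log2 change was -1.85. Without array 2 it was -0.42, and within slide 1 it was -0.41. On slide 3, induced progenitor array 2 read 9.04 and the additional uninduced progenitor array, which entered no test, read 10.63.

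The rise of Ikzf1 from HE to HE2 was also seen with Dox, at 1.35 (SE 0.26, adjusted P = 0.00371). It rose again to progenitors by 1.46 (SE 0.29, adjusted P = 0.00206), a change that was 0.74 and no longer passed without induced progenitor array 1. Another, dimmer probe of Ikzf1 had the same signs of response to Dox, with log2 changes of 0.72, -0.76, -0.65 and -0.92 in the order of the stages. It rose by 1.17 from HE to HE2 without Dox but was at -0.32 with Dox, where the main probe had risen. Towards myeloid progenitors Ikzf1 fell by 1.18 without Dox (SE 0.29, adjusted P = 0.00478) and by 1.56 with Dox (SE 0.29, adjusted P = 0.00108). The median over all genes moved by -0.12 and -0.07. The dimmer probe changed by -0.18 without and -0.45 with Dox over this step. With the mean of the probes, the change without Dox was -0.68 and did not pass. With the slide as a block the change without Dox was 0.19 and that with Dox -0.84. Without induced progenitor array 1, the change with Dox was likewise -0.84. The myeloid arrays shared no slide with the uninduced progenitors used, so that stage and slide cannot be told apart among the arrays fitted. On slide 3, the additional uninduced progenitor array, which entered no test, read 10.63 for Ikzf1. The uninduced myeloid progenitor arrays of that slide read 9.63, 9.70 and 9.80.

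**Figure D2:**
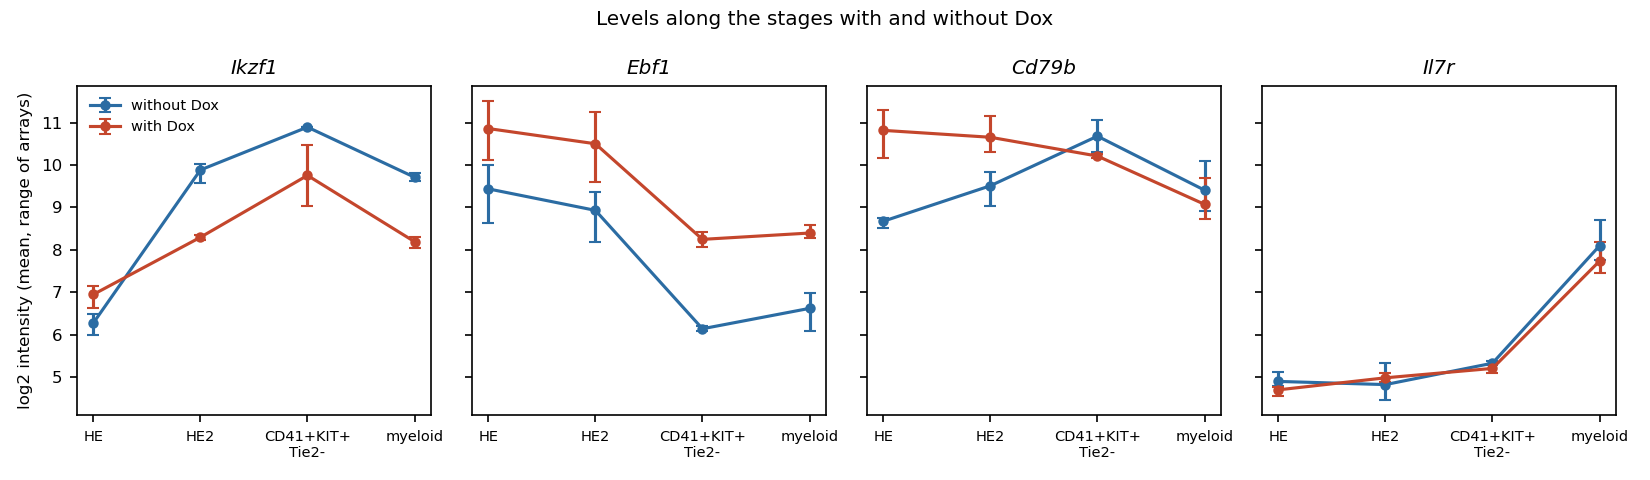
Mean log2 intensity (vertical axis) of Ikzf1, Ebf1, Cd79b and Il7r along the 4 stages (horizontal axis) without Dox in blue and with Dox in red, with bars from the lowest to the highest array. The Ikzf1 lines cross between HE and HE2, the Ebf1 line with Dox lies above the other at each stage, and the Cd79b lines cross between HE2 and progenitors.

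Ebf1, the factor that starts the B cell programme and that is also known from stromal and fat cell lineages, took the opposite course. Without Dox it read 8.63, 9.69 and 9.99 in HE and 8.19, 9.24 and 9.36 in HE2. It then read 6.09 and 6.20 in progenitors and 6.09, 6.99 and 6.80 in myeloid progenitors. HE and HE2 overlapped, progenitors and myeloid progenitors overlapped, and both earlier stages lay above both later ones. By replicate number, each uninduced HE2 array read below the HE array of the same number. From HE2 to progenitors it fell by 2.79 (SE 0.49, adjusted P = 0.000882), and in each of the 22 fits with 1 array left out it stayed past the threshold.

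With Dox, Ebf1 read 10.12, 10.95 and 11.51 in HE and 9.61, 10.64 and 11.25 in HE2. It read 8.43 and 8.07 in progenitors and 8.59, 8.31 and 8.29 in myeloid progenitors. All induced arrays were above all uninduced arrays of their stage. The change passed the threshold in progenitors, at 2.10 (SE 0.53, adjusted P = 0.0249) or 4.30-fold, and in myeloid progenitors, at 1.77 (SE 0.44, adjusted P = 0.0097) or 3.42-fold. The HE value of 1.42 (SE 0.44, adjusted P = 0.0331) did not pass. Nor did that of HE2, 1.57 (SE 0.44, adjusted P = 0.0183). None of the 4 differences in response between stages that were tested passed for Ebf1, and their log2 values ran from -0.33 to 0.54 with SEs of 0.62 to 0.69. Both calls lay close to the threshold: that in progenitors was lost in 14 of the 22 fits that left out 1 array (log2 changes of 1.92 to 2.29 there) and that in myeloid progenitors in 12 (1.51 to 1.95), with no change of direction. Within slides, the log2 change was 0.96 and 1.24 in HE, 0.89 and 1.58 in HE2 and 2.34 in progenitors.

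The fall of Ebf1 from HE2 to progenitors was also seen with Dox, at -2.25 (SE 0.49, adjusted P = 0.00389). It no longer passed without induced HE2 array 2 or 3 or induced progenitor array 1 or 2, with changes of -1.88 to -2.43. With the slide as a block it was -1.503 (adjusted P = 0.0857) and within slide 1 it was -1.17, and it did not pass. The summed level of 7 endothelial markers (Cdh5, Pecam1, Kdr, Esam, Flt1, Emcn and Tie1) moved with Ebf1 in some comparisons. On the log2 scale and without Dox it was 16.5 to 17.3 (HE), 15.8 to 16.2 (HE2), 14.7 to 14.8 (progenitors) and 13.8 to 14.2 (myeloid progenitors). With Dox it was 16.5 to 17.1, 16.8 to 17.0, 15.6 to 15.9 and 15.7 to 16. Of the 7, the number that rose with Dox was 0, 3, 3 and 5 in the order of the stages, and none fell. Of all genes tested, 4.7, 5.17, 3.03 and 5.13% rose and 2.39, 2.05, 0.704 and 1.18% fell. At least 6 of the 7 markers were well above background on all arrays of each group. In HE, where all induced arrays had more Ebf1, the ranges of the summed level overlapped. Without Dox the summed level was lower in HE2 than in HE, a step over which the Ebf1 groups overlapped. By replicate number Ebf1 was nonetheless lower in HE2 in each uninduced pair, and its change of -0.51 did not pass. The summed level was also lower in myeloid progenitors than in progenitors, where the Ebf1 groups overlapped as well. The part of these markers in the level of Ebf1 was not tested.

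Pax5, which EBF1 acts with to fix the B cell fate, stayed at the edge of detection. Its probe was well above background on 7 of 22 arrays, at most 2 in any group, with values of at most 5.77, and its other probe on 1 of 22. The arrays that passed were spread over 6 of the 8 groups, induced and uninduced, and the gene was not tested. The higher Ebf1 with Dox in progenitors stood beside Pax5 values of 5.39 and 5.39, not well above background on either array.

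Il7r was high in the myeloid progenitor cultures and at or near background elsewhere. Its probe was not well above background on any HE array or on any induced HE2 or progenitor array, at 4.56 to 5.32. It passed on 1 uninduced HE2 array (5.35), 1 uninduced progenitor array (5.39) and the additional progenitor array (6.10). In myeloid progenitors it read 7.81, 8.71 and 7.77 without Dox and 7.45, 7.57 and 8.19 with Dox, above every array of the other stages. The log2 change from progenitors was 2.76 without Dox (SE 0.29, adjusted P = 1.57e-06) and 2.53 with Dox (SE 0.29, adjusted P = 8.01e-06). Il7r entered the test only through its myeloid progenitor arrays, so that a rise over this step was favoured by the entry rule. The P values and calls of this step therefore do not test the rise independently of that rule. The levels on the arrays do not depend on it. With Dox the progenitor arrays give only a bound, the higher of the probe's own signal and the lowest signal well above background on each array, and the rise was at least 5.32-fold. With the slide as a block it was 2.61 without and 2.42 with Dox, the latter being the change against induced progenitor array 2 on the same slide, and both passed. The response of Il7r to Dox in myeloid progenitors was -0.36 (SE 0.26, adjusted P = 0.444), and the groups overlapped.

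The recombinase genes read at or near background. Rag1 was well above background on 0 of 22 arrays with either of its probes, and its values lay between 4.62 and 5.02. Rag2 was well above background on 6 of 22 arrays in 5 of the groups, at no more than 5.63, and the other Rag2 probe, printed in 10 spots, passed on 0 of 22. On induced progenitor array 1 the Rag2 spot was marked as an outlier and has no value. The additional progenitor array, where Rag2 read 6.42, is its highest value on any array, and no other progenitor array exceeded 5.25. All 10 genes listed for cutting, joining and opening DNA in V(D)J recombination beyond the recombinase (Dntt, Xrcc5, Xrcc6, Prkdc, Dclre1c, Lig4, Xrcc4, Nhej1, Hmgb1 and Hmgb2), most of which serve DNA repair in every cell, entered the test, and 0 of them changed with Dox at any stage by limma, with 1 or 2 of 10 at an unadjusted P under 0.05 per stage. Of all genes tested, 7.09, 7.22, 3.73 and 6.31% changed in the order of the stages, and a count of 0 in 10 is near those shares.

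Of the surrogate light chain, Vpreb1 was well above background on all 22 arrays and Igll1 on 3. Vpreb1 read 7.79, 8.42 and 8.27 in uninduced HE and 7.26, 8.07 and 7.21 in induced HE. It read 8.17, 8.05 and 8.08 in uninduced and 7.06, 7.67 and 7.46 in induced myeloid progenitors. In the latter all induced arrays lay below all uninduced ones, whereas HE overlapped. Its log2 changes with Dox were -0.65, -0.21, -0.71 and -0.70 in the order of the stages (SEs of 0.25 to 0.30, adjusted P of 0.0678 to 0.631), and none passed. No stage step passed either, with changes of -0.61 to 0.43. Igll1, its partner in the same complex, read 4.65 to 5.42 and was well above background on 1 uninduced HE array, 1 induced HE array and 1 induced progenitor array.

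Cd79b, the Igβ chain, was the member that rose in HE. It read 8.76, 8.75 and 8.52 without and 10.16, 10.99 and 11.29 with Dox in HE. In HE2 it read 9.04, 9.67 and 9.83 without and 10.49, 10.30 and 11.16 with Dox. The groups were apart at both stages. The log2 change was 2.14 in HE (SE 0.36, adjusted P = 0.000358), or 4.40-fold, and it passed in every fit with 1 array left out (1.90 to 2.47). In HE2 it was 1.14 (SE 0.36, adjusted P = 0.0341), which did not pass.

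At the later stages no change of Cd79b with Dox passed. It read 10.30 and 11.05 without and 10.25 and 10.17 with Dox in progenitors, and 10.09, 9.23 and 8.91 without and 9.70, 8.74 and 8.78 with Dox in myeloid progenitors. The log2 changes were -0.47 (SE 0.44, adjusted P = 0.593) and -0.33 (SE 0.36, adjusted P = 0.664). The response in myeloid progenitors was lower than that in HE by 2.47 (log2 difference of -2.47, SE 0.50, adjusted P = 0.00463), whereas the difference of -0.998 between HE2 and HE did not pass (SE 0.50, adjusted P = 0.631). Without Dox, Cd79b had log2 changes of 0.84 from HE to HE2 and 1.17 from HE2 to progenitors with no overlap between neighbouring groups, and neither passed. In HE, where Cd79b rose, the summed level of 5 mast cell and basophil markers was 12.4 to 12.6 without and 14.8 to 14.9 with Dox (2 of 3 tested rose), and that of 7 erythroid markers 15.1 to 15.5 and 17.4 to 18.4 (2 of 7 rose). The summed level of the mast cell and basophil markers was also higher with Dox in HE2 (12 to 12.3 without, 13.9 to 14.3 with), in progenitors (11.7 to 12.2 and 14 to 14.1) and in myeloid progenitors (10.8 to 11.2 and 13.7 to 15.2), where Cd79b did not pass. That of the erythroid markers was higher in HE2 (16.3 to 16.7 and 18.5 to 18.8) and progenitors (17.5 to 17.8 and 19 to 19.5), and lower in myeloid progenitors (20.4 to 20.6 and 20.1 to 20.4, 0 of 7 changed). Of all genes tested, 4.7% rose with Dox in HE and 6.31% changed in myeloid progenitors. The part of either list in the change of Cd79b was not tested.

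Cd79a, the Igα chain that pairs with Cd79b, remained dim. It was well above background on 18 of 22 arrays, with values of 5.25 to 6.53, and on 0 of the 3 uninduced myeloid progenitor arrays (5.25, 5.55 and 5.62). Cd79a reached 6.5 on induced HE array 3 alone and was tested through that array. Its log2 changes with Dox were between -0.18 and 0.07 (SEs of 0.24 to 0.29), and no step between stages passed. In induced HE, where Cd79b rose, Cd79a read 6.12, 5.43 and 6.53 against 6.44, 6.33 and 5.85 in uninduced HE.

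**Figure D3:**
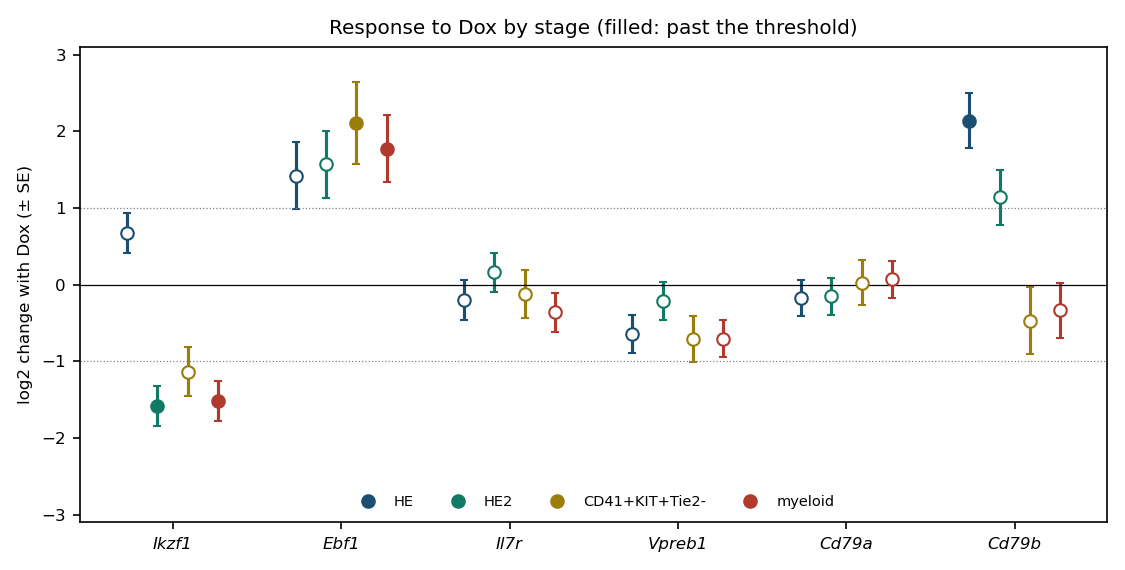
Log2 change with Dox (vertical axis, ± SE) of the 6 genes tested (horizontal axis), coloured by stage, with filled symbols past the threshold and dotted lines at 2-fold. Ebf1 lies above 1 at all stages, Ikzf1 changes sign after HE, and Cd79b is above 1 in HE and HE2.

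Counted together, 1 of the 6 tested genes changed with Dox in HE (Cd79b), compared with 7.09% of all genes tested. In HE2 it was 1 (Ikzf1, against 7.22%), in progenitors 1 (Ebf1, against 3.73%) and in myeloid progenitors 2 (Ikzf1 and Ebf1, against 6.31%). Between stages without Dox, 1 changed from HE to HE2 (5.07% of all genes), 1 from HE2 to progenitors (5.39%) and 2 from progenitors to myeloid progenitors (13.9%). With Dox the numbers were 1 (3.1%), 2 (7.36%) and 2 (7.37%). Il7r is counted at both steps to myeloid progenitors, and it entered the test only through its myeloid progenitor arrays. Cd79a entered only through induced HE array 3. The difference in response passed for 1 of 6 between HE2 and HE (1.34%) and for 2 of 6 between myeloid progenitors and HE (4.72%). It passed for 0 of 6 between progenitors and HE2 (0.645%) and 0 of 6 between myeloid progenitors and progenitors (1.5%), where limma gave 1 and 0 at an unadjusted P under 0.05. The median log2 change of the 6 was 0.25, 0.00, -0.30 and -0.35 with Dox in the order of the stages, beside -0.01, -0.03, -0.04 and -0.02 over all genes. Comparisons that share an arm, such as Dox in HE2 and HE to HE2, use the same arrays.

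Other genes of lymphoid cells were set beside them from 5 lists. Of their 69 genes, all on the array, 52 were tested. With Dox 9 rose and 3 fell in HE (4.7 and 2.39% of all genes), 4 rose and 1 fell in HE2 (5.17 and 2.05%), 3 rose and 1 fell in progenitors (3.03 and 0.704%), and 2 rose and 1 fell in myeloid progenitors (5.13 and 1.18%). The medians of the 52 were 0.24, 0.20, -0.08 and -0.17.

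Among the 11 genes tested from the list of pre-B receptor partners and B cell signalling, 4 rose and 1 fell in HE. In HE2, 2 rose and 1 fell, and 2 rose in progenitors and 1 in myeloid progenitors. Of all genes tested, 4.7, 5.17, 3.03 and 5.13% rose in the order of the stages, and 2.39, 2.05, 0.704 and 1.18% fell. The same shares apply to the counts of the lists below. Ly6d, a surface protein of lymphoid progenitors biased to the B lineage, rose at every stage. Its group means went from 5.69 to 7.57, 6.05 to 9.63, 6.23 to 9.86 and 5.76 to 7.24 in that order. The log2 changes were 1.88, 3.58, 3.63 and 1.48, with adjusted P values from 3.22e-06 to 0.00865. Pik3cd, a catalytic subunit of PI3 kinase in leukocytes, rose by 2.20 in HE, and Cd22, an inhibitory co-receptor of B cells, by 1.33 in progenitors. Plcg2, the phospholipase below the B cell receptor, fell by 1.14 in HE and also passed, as lower, in HE2 (adjusted P = 0.00203).

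Of 10 T and NK cell genes tested, 3 rose and 1 fell in HE, 2 rose in HE2, 1 rose and 1 fell in progenitors and 1 fell in myeloid progenitors. Thy1, a surface glycoprotein of T cells and other cell types, rose by 3.29 in HE and 1.80 in HE2, from means of 6.22 and 5.72. Eomes, a T-box factor of NK and memory T cells and of the early embryo, rose by 1.78, 1.44 and 1.45 at the 3 stages before myeloid progenitors. Zap70, the kinase of the T cell receptor, rose by 1.83 in HE. Klrb1c, an NK cell receptor, fell by 1.07 in progenitors, and Gzmb, which encodes granzyme B, fell by 2.07 in myeloid progenitors.

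Of 15 lymphoid transcription factors tested, 2 rose in HE, none in HE2 or progenitors and 1 in myeloid progenitors, and none fell; at an unadjusted P under 0.05 limma gave 4 in HE2 and 2 in progenitors. They were Satb1, a chromatin organiser of thymocytes, at 1.56 and Irf8, a factor of B cell and dendritic cell development, at 1.52 in HE, and Sox4, which pro-B cells need, at 1.61 in myeloid progenitors. Of 6 cytokine receptor and signalling genes tested, the only one past the threshold was Il2rg in HE. Il2rg, the common γ chain that completes the interleukin-7 receptor, fell by 2.37 in HE (SE 0.31, adjusted P = 3.25e-05), from a mean of 10.99 to 8.62. Its changes at the 3 later stages were -0.96, -0.56 and -0.09, none past the threshold.

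**Figure D4:**
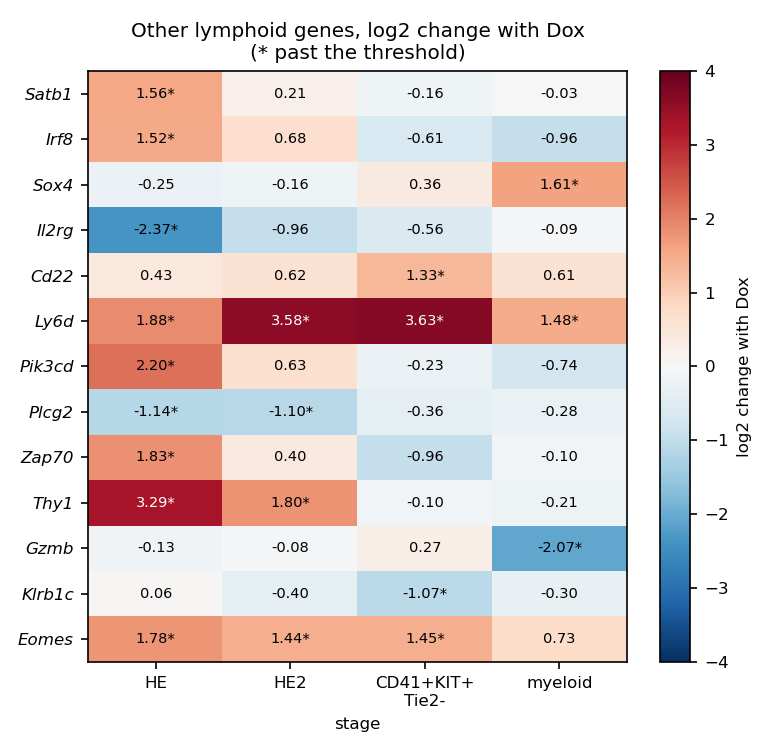
Log2 change with Dox of 13 other lymphoid genes (rows) at the 4 stages (columns), with red for higher and blue for lower and an asterisk for changes past the threshold. Ly6d is past it at all 4 stages, and Thy1 in HE and HE2.

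Over the 22 arrays, the genes most like each member were listed among 14351 genes well above background on at least 11 arrays, by Pearson's r across arrays that share their groups, slides and normalization. Those closest to Ikzf1 were Traf3ip3 (r = 0.956), F13a1 (0.943) and Abhd15 (0.939). Those closest to Ebf1 were Efna1 (0.968), Gpr182 (0.963) and Mrc1 (0.960), and 1.02% of all genes had an r of at least 0.9 with it. Cd79b was most like Rab17 (0.931), Il16 (0.884) and Zap70 (0.882). Vpreb1 had no gene at 0.9, and its nearest were Pygo2 (0.866), Polm (0.810) and Cep19 (0.781). For Cd79a, which was dim, the nearest were Pde1c (0.933), Vmn1r26 (0.912) and Olfr139 (0.911).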

How the data were processed

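RNA from 23 samples was hybridised to 1-colour Agilent arrays. The authors deposited the median intensity of each spot and of its local background, read by Feature Extraction (version 10.7.1.1 in the labels, 10.7.3.1 in the file headers) and not normalized between arrays. The log2 values that the authors deposited beside them, background corrected and quantile normalized, served as an alternative. From the intensities, background was corrected with normexp (offset 16), 3671 control spots were dropped, outlier spots were set aside, and the 23 arrays were quantile normalized. Spots of 1 probe were averaged, and probes were named by their accession through the RefSeq table of GRCm38.p6. That table gave 26582 of 55681 probes a symbol, for 20145 genes, and was used for names and promoters, while the array is annotated on another build. Each gene took its probe with the highest mean. The 15202 genes at a log2 intensity of at least 6.5 on 1 array or more were fitted with lmFit and eBayes from limma 3.58.1 in R 4.3.3 (tables read with data.table, version 1.17.8), as group means over 22 arrays leaving 14 residual degrees of freedom. The threshold for a call was 2-fold with P no higher than 0.001, and adjusted P values (Benjamini-Hochberg) cover all genes tested.

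The additional uninduced progenitor array, called both a technical replicate and replicate 3, was normalized and not fitted. Induced myeloid progenitor array 3, called both biological and technical, was used. The few arrays per group limit precision, and 0 spots were saturated. By the replicate numbers in the labels, uninduced HE and HE2 arrays of the same number deviated together (correlations across genes of 0.394, 0.795 and 0.608), and the numbers were taken to pair these 2 groups only.

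The 10 genes and the lists were chosen with earlier results of these data known. The genes named besides them are up to 2 called genes with the largest change per lymphoid list and Dox comparison, the 3 genes most like each member, and Tek, Itga2b and Runx1t1 as checks. The fit was also run on simulated data, with levels and spreads taken from these arrays. The simulated noise was independent between genes and between arrays, whereas some real arrays deviated together, and slides were not modelled. A log2 change of 1.5 given to 200 of 14920 genes was recovered for 60 to 83.5% of them, depending on the comparison. There were 10 to 18 false calls. The alternatives tried were other background corrections, scaling and filters, the deposited log2 values, the mean of a gene's probes, other thresholds, fits of fewer groups, each array left out, and slide, scan day or replicate number as a block.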

Additional observations from a re-analysis of the deposited data

Results flagged for a closer look

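The response to Dox differed between stages for 2 of the genes, by interaction terms of the limma fit. For Ikzf1 it was lower in HE2 than in HE by a log2 difference of -2.26 (SE 0.37, adjusted P = 0.00862), with induced arrays above all uninduced ones in HE and below all of them in HE2. For Ikzf1 it was likewise lower in myeloid progenitors than in HE, by -2.19 (SE 0.37, adjusted P = 0.00101). For Cd79b the response in myeloid progenitors was below that in HE by -2.47 (SE 0.50, adjusted P = 0.00463), where all induced HE arrays were above the uninduced ones and the myeloid progenitor groups overlapped. The 2 myeloid differences set arrays of slide 3 against arrays of slides 1 and 2, and the response itself was measured within slide 3 in myeloid progenitors.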

How the results depend on the processing

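Each value was recomputed under 38 settings (37 for the steps to myeloid progenitors, which could not be fitted with the early stages and myeloid progenitors normalized apart). Of the 17 calls for single genes, 7 held under all of them. The reported settings gave 5 calls for Dox, and there were 3 with an offset of 50, with the deposited log2 values and with the scan day as a block, 9 at an adjusted P of at most 0.05 or at 2-fold alone, 3 once the adjusted P had to be 0.001 or less and, with 1 array left out, 3 to 6. Stage changes without Dox gave 4, with 7 at 2-fold alone and 3 to 5 with 1 array left out. Stage changes with Dox gave 5, with 1 at that stricter adjusted P, 2 in fits of only the groups compared, 3 with the slide or the scan day as a block and 2 to 5 with 1 array left out. Differences in response gave 3, the same number with any array left out, and 0 at the adjusted P of 0.001.

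The Ebf1 call in progenitors was lost without any of the 4 progenitor arrays, any myeloid progenitor array other than uninduced array 1, uninduced HE array 2, induced HE array 2, uninduced HE2 arrays 2 and 3 or induced HE2 array 2. That in myeloid progenitors was lost without any of the 6 myeloid or 4 progenitor arrays, induced HE array 2 or induced HE2 array 2. The fall of Ikzf1 from progenitors to myeloid progenitors without Dox was lost in 14 of 22 such fits (-1.14 to -1.22) and was reversed with the slide (0.19) or the scan day (0.25) as a block, where only induced progenitor array 2 links the slides. With the mean of its probes, the rise of Ikzf1 from HE to HE2 with Dox was 0.51 and did not pass. With scaling to the 75th percentile, the median Dox change of all genes was -0.19 in progenitors and -0.15 in myeloid progenitors. Under the reported settings it was -0.04 and -0.02. For the steps to myeloid progenitors without and with Dox the median was -0.25 and -0.19, beside -0.12 and -0.07 under the reported settings. This scaling reversed none of the calls. Under it the Ebf1 change with Dox in progenitors was 2.02 (adjusted P = 0.0376) and the fall of Ikzf1 from progenitors to myeloid progenitors without Dox was -1.29 (adjusted P = 0.00695), and both calls were lost.

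With the replicate number as a block (replicate block), there were 7 calls for Dox, since Ebf1 passed in HE (adjusted P = 0.00534) and HE2 (adjusted P = 0.00265), 3 for stage changes without Dox, 5 with Dox and 3 for differences in response. The numbers paired uninduced HE and HE2 arrays only, where the Ikzf1 call held. Where an arm was left with 1 array, it was assumed to vary like the other groups. Probes near background, such as Pax5, Rag2 and Igll1, allow no statement on change.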
